A study of Mus musculus with 10 samples.

Results

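Autophagy is the route by which a cell wraps parts of its own cytoplasm in a membrane and delivers them to the lysosome, and mitophagy is the same route turned on mitochondria. The genes described here are 40 genes of that route, listed by what their proteins do, with earlier results of these data known: 5 of the ULK1 initiation complex, 6 of the class III PI3 kinase complexes, 5 of phagophore growth, 10 of the conjugation machinery, 5 of the ATG8 family, 4 cargo receptors, 2 mitophagy genes, the transcription factor Tfeb and 2 lysosomal membrane proteins. All 40 were found by symbol among the 56748 gene identifiers of the count tables, and all 40 had enough reads to be among the 15454 genes tested. A further 91 genes of autophagy, mitophagy and the lysosome were read from the same fit.

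The hearts came from wild-type C57BL/6 mice bought at 8 weeks of age, of which 5 ran on a treadmill and 5 sedentary mice of the same age did not. Training lasted 8 weeks, at 15 m/min for 120 min on 5 days a week, after a rest of at least 2 weeks and an acclimatization of 1 week. The whole heart, both atria included, was used for 1 poly-A selected, strand-specific library per animal. The comparison asks what 8 weeks of forced running does to the heart's transcripts. The 10 libraries differed in size, with 29461697 to 35945417 reads on genes in training hearts and 35196993 to 39431030 in sedentary hearts.

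The route begins when the ULK1 kinase complex, held in check by mTORC1 and switched on by AMPK, activates the class III PI3 kinase complexes on a forming membrane. WIPI proteins read the lipid that this kinase makes, ATG2 and ATG9 feed lipid into the growing phagophore, and the conjugation machinery couples ATG8 proteins (the LC3 and GABARAP families) to it. Cargo receptors tie the cargo to ATG8, and the closed vesicle fuses with a lysosome, whose genes are under the control of TFEB. In heart muscle the pathway is known for turning over mitochondria and protein aggregates, and it is regulated largely at the protein level, by phosphorylation, lipidation and degradation, which counts of mRNA do not measure.

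Markers of cell types did not have the same levels in both groups. All 6 genes of the atrial list passed the filter on low counts, and their summed level ran from 5053 to 7617 CPM (counts per 1000000 reads on genes, after TMM scaling) in training hearts and from 2789 to 6837 CPM in sedentary hearts, with 2 of 6 genes higher and sedentary heart 1 at the top of its group. The 8 cardiomyocyte markers summed to 62263 to 67772 CPM in training and 65463 to 74614 CPM in sedentary hearts (1 of 8 lower), and the 5 endothelial markers to 699.5 to 762.6 CPM and 783 to 828 CPM (1 of 5 lower). Among 6 fibroblast markers 1 was higher, at 1093 to 1356 CPM against 958 to 1160 CPM, and of 14 circadian clock genes 5 were higher and 3 lower. No macrophage, adipocyte or erythroid marker passed the test, nor did the 2 of 5 skeletal muscle markers that were tested. The adipocyte markers still varied widely between hearts, summing to 20.7 to 171.6 CPM in training and 18.1 to 139.1 CPM in sedentary hearts. The erythroid markers summed to 31.7 to 82.5 CPM and 50.5 to 117.8 CPM. Apart from the atrial and clock lists, whose scores were used as covariates, the part of these lists in the results was not tested. In tissue RNA of this kind, fewer cells of a type and less RNA per cell cannot be told apart.

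In training hearts most mRNAs of the pathway were close to their sedentary level. By edgeR's quasi-likelihood test at a false discovery rate (FDR) below 0.1 over all genes, 2 of the 40 genes passed, both lower in training hearts. They were Map1lc3a, which codes for the ATG8 protein LC3A, and Optn, which codes for the cargo receptor optineurin. That is 5.0% of the list, where 7.01% of all tested genes passed (2.75% higher and 4.26% lower), so the share called was near that of any gene in these hearts. DESeq2 called 4 of the 40, with Wipi1 added among the lower genes and Lamp2 as the only higher one, beside 11.3% of all genes. At an unadjusted edgeR p below 0.05 there were 8 of the 40, which is the 20.0% seen over all genes.

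The differences were small in size as well as few. Of the 40 log2 fold changes (training over sedentary), 19 lay above 0 and 21 below. Their median was -0.0048 beside 0.00026 over all tested genes, and they ran from -0.21 for Optn to 0.22 for Atg14. The median absolute log2 fold change was 0.056 for the 40 genes and 0.0728 for the 10542 genes expressed at or above the lowest of them, of which 8.87% were called. Under TMM scaling, precision was good enough to bound what was missed for each gene. The intervals do not include the shift that another scaling brings, which is given below. The standard error of a log2 fold change had a median of 0.0481 (0.0334 to 0.0876), and for 37 of 40 genes the whole 95% interval lay within 0.3 log2 units of 0, a 1.23-fold change either way. For 28 genes it lay within 0.2 units, or 1.15-fold. Over the 38 genes that were not called the interval bounds reached from -0.23 (Wipi1) to 0.39 (Atg14). Within sedentary hearts the coefficient of variation of CPM had a median of 4.55%, from 1.25% for Lamp1 to 11.8% for Atg101, and in training hearts it reached 15.1%, for Gabarapl2.

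**Figure D1:**
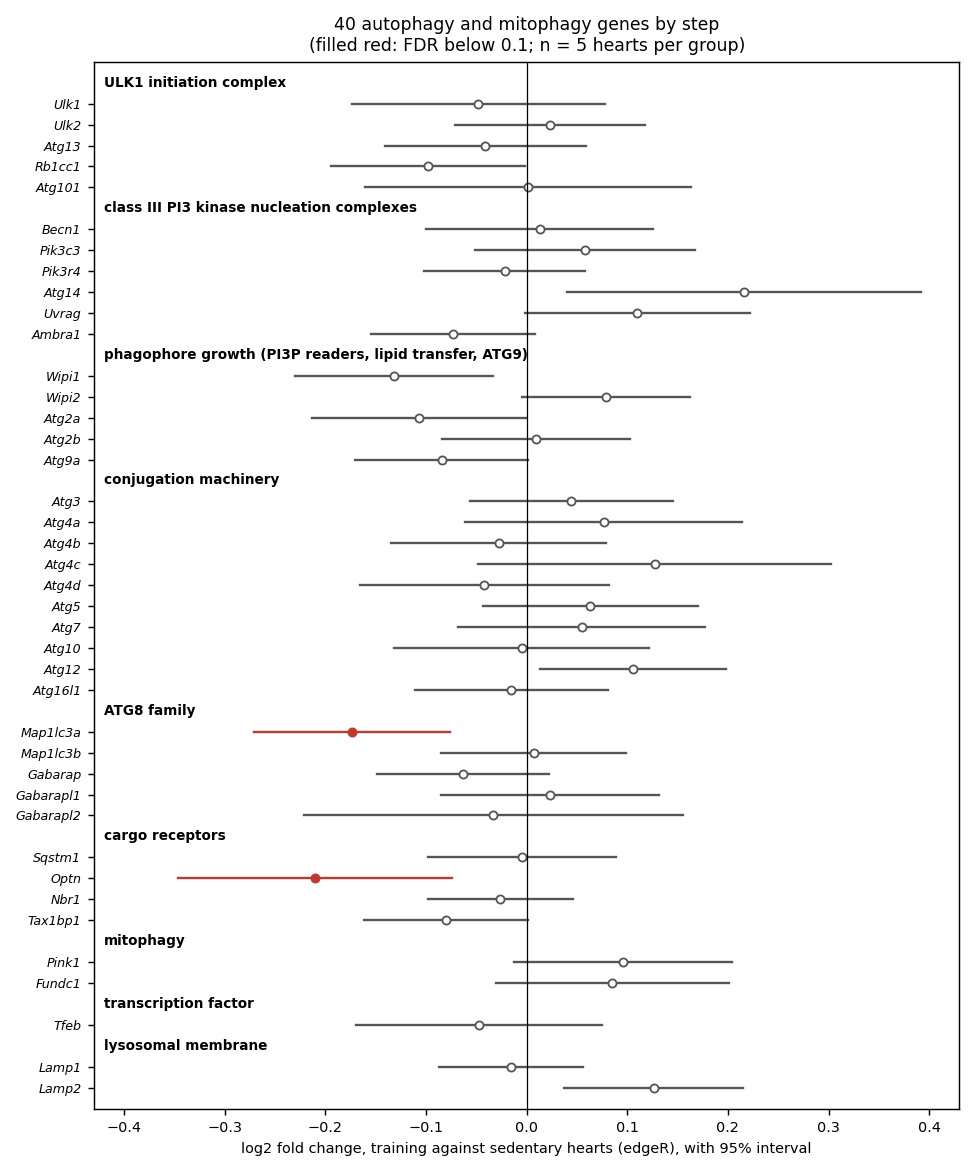
Log2 fold change of each of the 40 genes, training over sedentary hearts (x axis, log2 units), with its 95% interval from edgeR (n = 5 hearts per group), grouped by step of the pathway on the y axis. Map1lc3a at -0.17 and Optn at -0.21 are the 2 genes that passed at an FDR below 0.1, and most of the other intervals span 0.

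The ATG8 family decorates both faces of the phagophore and is where cargo receptors dock. Map1lc3a (ENSMUSG00000027602, chr2:155118217-155119998 on the plus strand in GRCm39) stood at 356, 319.7, 344, 322 and 304 CPM in training hearts 1 to 5. In sedentary hearts 1 to 5 it stood at 369, 367, 367, 386 and 368 CPM. Every training heart lay below every sedentary heart, which 5.06% of all tested genes also did in one direction or the other. The means were 329 ± 20.6 CPM against 371 ± 7.97 CPM (SD, n = 5 each), a log2 fold change of -0.17 ± 0.0453 (SE, 95% interval -0.27 to -0.08, edgeR adjusted p = 0.0531), so the transcript fell by 11.4%. It was the only one of the 40 genes whose groups did not overlap. Sedentary heart 1, the sedentary heart richest in atrial transcripts, had 369 CPM. With the atrial score as a covariate the value was -0.21 (edgeR adjusted p = 0.199), a fit in which 0.608% of all genes passed, and without sedentary hearts 2 and 5, the poorest in atrial transcripts, it was -0.18 (edgeR adjusted p = 0.165). Without 1 heart at a time, 6 of 10 fits kept the call, and the edgeR adjusted p rose to 0.123 without training heart 4.

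The paralogue that most assays of autophagy follow did not pass. Map1lc3b, which codes for LC3B, had 162, 148, 148, 166 and 160.4 CPM in training hearts and 153, 162, 157, 151 and 158 CPM in sedentary hearts. Its training hearts spread to both sides of the sedentary range, with 2 above the highest sedentary heart and 2 below the lowest. Its log2 fold change was 0.01 (95% interval -0.08 to 0.10, edgeR adjusted p = 0.949), and the CPM ratio of Map1lc3a to Map1lc3b overlapped between the groups (1.90 to 2.33 in training, 2.26 to 2.56 in sedentary hearts). Gabarapl1, a GABARAP-type ATG8 gene that FOXO factors are known to drive in muscle, had 139.6, 138, 144, 149 and 145 CPM in training and 148, 155, 138, 131 and 131 CPM in sedentary hearts, with a log2 fold change of 0.02 (95% interval -0.09 to 0.13, edgeR adjusted p = 0.847). Gabarap itself gave -0.06 (edgeR adjusted p = 0.408). Gabarapl2 gave -0.03 (95% interval -0.22 to 0.16, edgeR adjusted p = 0.876), with training heart 1 at 26.2 CPM above the other 9 hearts. Per transcript length, Map1lc3a made up 45.5% to 48.4% of the summed ATG8 level per kilobase in training hearts and 49.0% to 50.8% in sedentary hearts, without overlap. The shares of the other 4 genes overlapped between the groups. Map1lc3a is the largest part of this sum over the ATG8 genes, so its share restates its own fall and is not a separate result. The RSEM estimate, which also assigns reads that map to several places, departed from the count of uniquely mapped reads for 2 of these genes and was 2.59 times the uniquely mapped count for Gabarapl2 and 1.37 times for Map1lc3b. On the RSEM counts the log2 fold change of Gabarapl2 changed sign, to 0.08 (edgeR adjusted p = 0.520), and that of Map1lc3b stayed at 0.01.

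Cargo receptors carry ubiquitin-marked cargo to ATG8. Optn (ENSMUSG00000026672, chr2:5022703-5068945 on the minus strand) codes for optineurin, a receptor for damaged mitochondria and bacteria. Its level was 108, 106, 95.3, 113 and 98.0 CPM in training hearts 1 to 5 and 107, 127, 127, 111 and 129 CPM in sedentary hearts 1 to 5. Sedentary hearts 2, 3 and 5 were above all training hearts, whereas sedentary hearts 1 and 4 lay inside the training range. The means were 104 ± 7.30 CPM against 120.3 ± 10.4 CPM (SD, n = 5 each), a log2 fold change of -0.21 ± 0.0634 (SE, 95% interval -0.35 to -0.07, edgeR adjusted p = 0.0867), and the transcript fell by 13.6%.

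The call was lost in most fits on fewer hearts. Of the 10 fits without 1 heart, 3 kept it, and the edgeR adjusted p reached 0.196 without sedentary heart 3. With the atrial score as a covariate the log2 fold change was -0.09 (edgeR adjusted p = 0.691), in the fit that called 0.608% of all genes, and without sedentary hearts 2 and 5, a choice made after seeing the data, it was -0.14 (edgeR adjusted p = 0.371). With the mouse number as a replicate block the edgeR adjusted p was 0.131, and on RSEM counts 0.101.

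The other 3 receptors did not pass. Sqstm1 codes for p62, the receptor that is itself consumed with its cargo, and its training hearts held 353, 366, 389.9, 389 and 391 CPM. Its sedentary hearts held 387, 365, 391, 361 and 390.3 CPM, in the same range. The means were 378 ± 17.5 CPM against 379 ± 14.4 CPM, and the log2 fold change was 0.00 (95% interval -0.10 to 0.09, edgeR adjusted p = 0.969). Nbr1, a receptor related to p62, gave -0.03 (edgeR adjusted p = 0.720) and Tax1bp1, which links ubiquitin to LC3, gave -0.08 (edgeR adjusted p = 0.253).

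**Figure D2:**
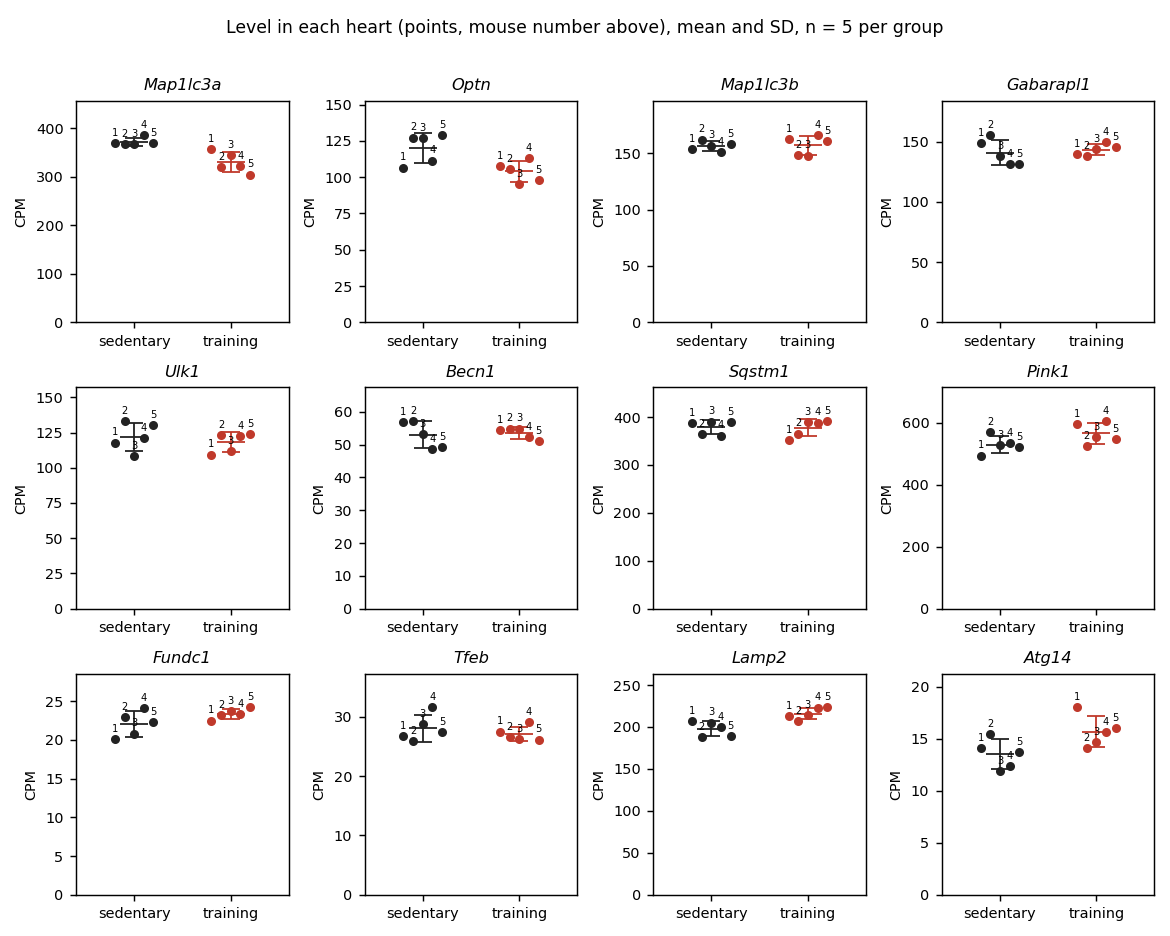
Level in CPM (y axis, from 0) of those of the 40 genes given heart by heart, except Wipi1, for sedentary and training hearts (x axis). Each heart is numbered, and the mean and SD are drawn (n = 5 per group). Map1lc3a separates the groups, with training hearts at or below 356 CPM and sedentary hearts at or above 367 CPM.

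At the start of the route, none of the 5 genes of the ULK1 complex passed the edgeR test or DESeq2, and 1 had an unadjusted p below 0.05. Ulk1, the kinase itself, was at 109, 123, 112, 123 and 124 CPM in training hearts. In sedentary hearts it was at 118, 133, 108, 121 and 130.4 CPM. The means of 118 ± 6.98 CPM against 122 ± 9.95 CPM differed by less than the SD of the sedentary hearts, with a log2 fold change of -0.05 (95% interval -0.17 to 0.08, edgeR adjusted p = 0.701). Its paralogue Ulk2 gave 0.02 (edgeR adjusted p = 0.822). Rb1cc1, which codes for the scaffold FIP200, had the largest value of the complex at -0.10 (95% interval -0.19 to 0.00, edgeR adjusted p = 0.240), from 80.6 to 92.6 CPM in training hearts and 87.3 to 95.7 CPM in sedentary hearts. The adaptor Atg13 gave -0.04 and its partner Atg101 0.00.

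Of the 6 genes of the class III PI3 kinase complexes, 0 passed edgeR or DESeq2 and 1 had an unadjusted p below 0.05. Becn1, which codes for beclin 1, the regulatory subunit that BCL2 binds, had 54.5, 54.9, 54.9, 52.2 and 51.0 CPM in training hearts. The sedentary hearts had 56.9, 57.1, 53.3, 48.5 and 49.2 CPM. The wider spread was in the sedentary group, and the log2 fold change was 0.01 (95% interval -0.10 to 0.13, edgeR adjusted p = 0.923). Atg14, the subunit that directs the kinase to autophagosome formation, had the largest positive value of all 40 genes. It was at 18.0, 14.1, 14.7, 15.6 and 16.1 CPM in training and 14.1, 15.5, 11.9, 12.3 and 13.7 CPM in sedentary hearts, with 5 of 5 training hearts above the sedentary mean and 3 of 5 above the highest sedentary heart. The log2 fold change was 0.22 ± 0.0817 (95% interval 0.04 to 0.39, edgeR adjusted p = 0.162), which missed the threshold. Uvrag, the alternative subunit of the endosomal complex, gave 0.11 (edgeR adjusted p = 0.259). The lipid kinase Pik3c3 gave 0.06, its regulatory subunit Pik3r4 -0.02 and the beclin 1 regulator Ambra1 -0.07 (edgeR adjusted p = 0.303).

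Phagophore growth held 5 genes, of which edgeR called 0 and DESeq2 called 1, Wipi1, and 2 had an unadjusted edgeR p below 0.05. Wipi1 codes for a reader of the lipid that the class III kinase makes. Its level was 126, 129, 123, 134 and 124 CPM in training hearts and 128, 148, 138, 137 and 148 CPM in sedentary hearts, so that 5 of 5 training hearts lay below the sedentary mean and sedentary heart 1 lay among the training hearts. The log2 fold change was -0.13 ± 0.0458 (95% interval -0.23 to -0.03, edgeR adjusted p = 0.133), and without sedentary heart 1 the edgeR adjusted p was 0.0498. With the atrial score as a covariate it was -0.04 (edgeR adjusted p = 0.813). Wipi2, the paralogue that recruits ATG16L1, went the other way in value at 0.08 (edgeR adjusted p = 0.279). The lipid transfer genes gave -0.11 (edgeR adjusted p = 0.247) for Atg2a and 0.01 for Atg2b. The scramblase Atg9a gave -0.08 (edgeR adjusted p = 0.256), with an RSEM estimate 1.93 times the unique count, and the gene model Gm29253 overlaps it on the same strand, whose part in that gap was not tested.

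The conjugation machinery was the largest group, and 0 of its 10 genes passed edgeR or DESeq2, with 1 at an unadjusted p below 0.05. It works like ubiquitin transfer. Atg7 is the activating enzyme, with a log2 fold change of 0.05 (edgeR adjusted p = 0.649). Atg3 and Atg10 are the transferring enzymes, at 0.04 and -0.01. Atg12, Atg5 and Atg16l1 form the complex that places ATG8 on the membrane, at 0.11 (edgeR adjusted p = 0.191), 0.06 and -0.02. In 5 of 5 training hearts Atg12 was above the sedentary mean. The Atg4 proteases prime ATG8 and strip it from membranes. Atg4c, the lowest of the 40 genes per kilobase, had the largest value of the group at 0.13 (95% interval -0.05 to 0.30, edgeR adjusted p = 0.420), while Atg4a (RSEM estimate 1.33 times the unique count) gave 0.08, Atg4b -0.03 and Atg4d -0.04. The group's median was 0.049, and its 10 values ran from -0.04 to 0.13. For Atg4d and Atg7, 16.9% and 17.8% of the reads of both strands over the gene fell on the other strand, and for each of the other 38 genes this share was at most 5%.

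Mitophagy proper was represented by Pink1 and Fundc1, neither of which passed edgeR or DESeq2 or had an unadjusted p below 0.05. Pink1 codes for the kinase that marks depolarized mitochondria. It was at 596, 525, 554, 605 and 548 CPM in training hearts and 494, 569, 529, 534 and 520.2 CPM in sedentary hearts, with means of 566 ± 33.6 CPM against 529 ± 26.8 CPM. Training hearts 1 and 4 were above the highest sedentary heart and the other 3 were inside the sedentary range, for a log2 fold change of 0.10 (95% interval -0.01 to 0.20, edgeR adjusted p = 0.310). Fundc1, a receptor in the outer mitochondrial membrane that responds to low oxygen, was at 22.5, 23.1, 23.7, 23.3 and 24.2 CPM in training. It was at 20.1, 23.0, 20.8, 24.1 and 22.3 CPM in sedentary hearts. All 5 training hearts lay above the sedentary mean, but 4 of them lay inside the sedentary range, and the log2 fold change was 0.09 (95% interval -0.03 to 0.20, edgeR adjusted p = 0.414).

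Tfeb, the transcription factor that drives lysosome and autophagy genes when it enters the nucleus, held 27.5, 26.6, 26.3, 29.1 and 26.1 CPM in training hearts. The sedentary hearts held 26.7, 25.9, 28.7, 31.6 and 27.4 CPM. The groups overlapped, with a log2 fold change of -0.05 (95% interval -0.17 to 0.07, edgeR adjusted p = 0.694). TFEB binds an E-box within the so-called CLEAR element, and the letters GTCACGTG on either strand (CACGTGAC when read from the other strand) were looked for in the RefSeq promoter windows, which span 250 bases before to 50 after each annotated start. The match was in 738 of 32851 mouse windows (2.25%), and in 4 of the 40 windows available for 34 of the genes. Those 4 genes were Atg14, Atg3, Atg7 and Lamp1. Their matches are shown so that these letters can be read in their sequence context, in RefSeq sequence on build GRCm38.p6, 5′ to 3′ along the gene, with the matched letters in capitals and flanks in lower case.
Atg14, chr14:47568428-47568461, minus strand: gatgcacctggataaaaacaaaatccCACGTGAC
Atg3, chr16:45158707-45158789, plus strand: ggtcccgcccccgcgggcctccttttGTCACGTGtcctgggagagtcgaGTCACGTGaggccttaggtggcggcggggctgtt
Atg7, chr6:114670936-114670995, plus strand: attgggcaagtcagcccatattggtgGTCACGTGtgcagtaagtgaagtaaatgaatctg
Lamp1, chr8:13159107-13159160, plus strand: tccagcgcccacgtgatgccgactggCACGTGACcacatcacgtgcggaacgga
Atg3 carries the match at 2 places. Of the 91 other genes 73 had windows, 89 in all, and the match was in 12 of these windows. The log2 fold changes of the 4 genes were 0.22, 0.04, 0.05 and -0.02, in that order, and none passed the edgeR test. A match of letters is a description of the sequence and not evidence of binding.

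LAMP1 and LAMP2 are the main glycoproteins of the lysosomal membrane, and LAMP2 is needed for autophagosomes to fuse in heart muscle. Lamp1 was the steadiest of the 40 transcripts in sedentary hearts, at 459.8 to 473 CPM in training hearts and 463 to 479 CPM in sedentary hearts, with a log2 fold change of -0.02 (95% interval -0.09 to 0.06, edgeR adjusted p = 0.839). Lamp2 (ENSMUSG00000016534, chrX:37488520-37545340 on the minus strand) stood at 213, 207, 214, 223 and 223 CPM in training hearts. In sedentary hearts it stood at 207, 188, 205, 200.1 and 189.6 CPM. All 5 training hearts were above the sedentary mean, and sedentary heart 1 was level with the lowest training heart. The means were 216 ± 7.09 CPM against 198 ± 8.99 CPM (SD, n = 5 each), with a log2 fold change of 0.13 ± 0.0413 (95% interval 0.04 to 0.21, edgeR adjusted p = 0.113) that missed the threshold, whereas DESeq2 gave an adjusted p of 0.0359. With the atrial score as a covariate it was 0.06 (edgeR adjusted p = 0.688). Within a heart the CPM ratio of Lamp2 to Lamp1 was 0.440 to 0.485 in training and 0.397 to 0.438 in sedentary hearts, without overlap. Over all 780 pairs of the 40 genes, 54 ratios (6.92%) did not overlap between the groups, so a ratio of this kind is not rare among them.

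The 40 transcripts differ widely in abundance, which can be read only per transcript length. In sedentary hearts the level per kilobase was 394 ± 8.45 CPM per kb for Map1lc3a (mean ± SD, n = 5), the highest of all, and 1.52 CPM per kb for Atg4c, the lowest, a 259-fold range. Pink1 followed at 226 ± 11.5, Lamp1 at 212 ± 2.64, Sqstm1 at 199 ± 7.57 and Gabarap at 197 ± 7.36 CPM per kb. Of these neighbours, Pink1 and Lamp1 overlapped between sedentary hearts, as did Sqstm1 and Gabarap, whereas Map1lc3a lay above Pink1 in all of them. Next came Map1lc3b at 106 ± 3.00, Gabarapl1 at 79.9 ± 6.09 and Lamp2 at 63.3 ± 2.88 CPM per kb. The first 8 ranks were thus held by 4 ATG8 genes, Pink1, Sqstm1 and both lysosomal membrane genes. Wipi1, of phagophore growth, came next at 59.2 ± 3.53 CPM per kb and overlapped Lamp2 between sedentary hearts. The other enzymes and complexes that build the phagophore were lower, such as Becn1 at 33.9 ± 2.61, Ulk1 at 29.2 ± 2.38, Atg5 at 6.19 ± 0.205 and Atg14 at 3.96 ± 0.420 CPM per kb. The 5 ATG8 genes together summed to 796.6 of the 2057.9 CPM per kb of all 40. These levels rest on uniquely mapped reads. The RSEM estimate was 2.59 times that count for Gabarapl2, 1.93 for Atg9a, 1.37 for Map1lc3b and 1.33 for Atg4a, so their levels are understated beside it. The order by RSEM counts was not tested. In the order by unique counts, 25 of the 39 pairs of neighbours overlapped between sedentary hearts, so their order is not resolved, and 6 genes changed rank when RSEM's effective length was used.

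**Figure D3:**
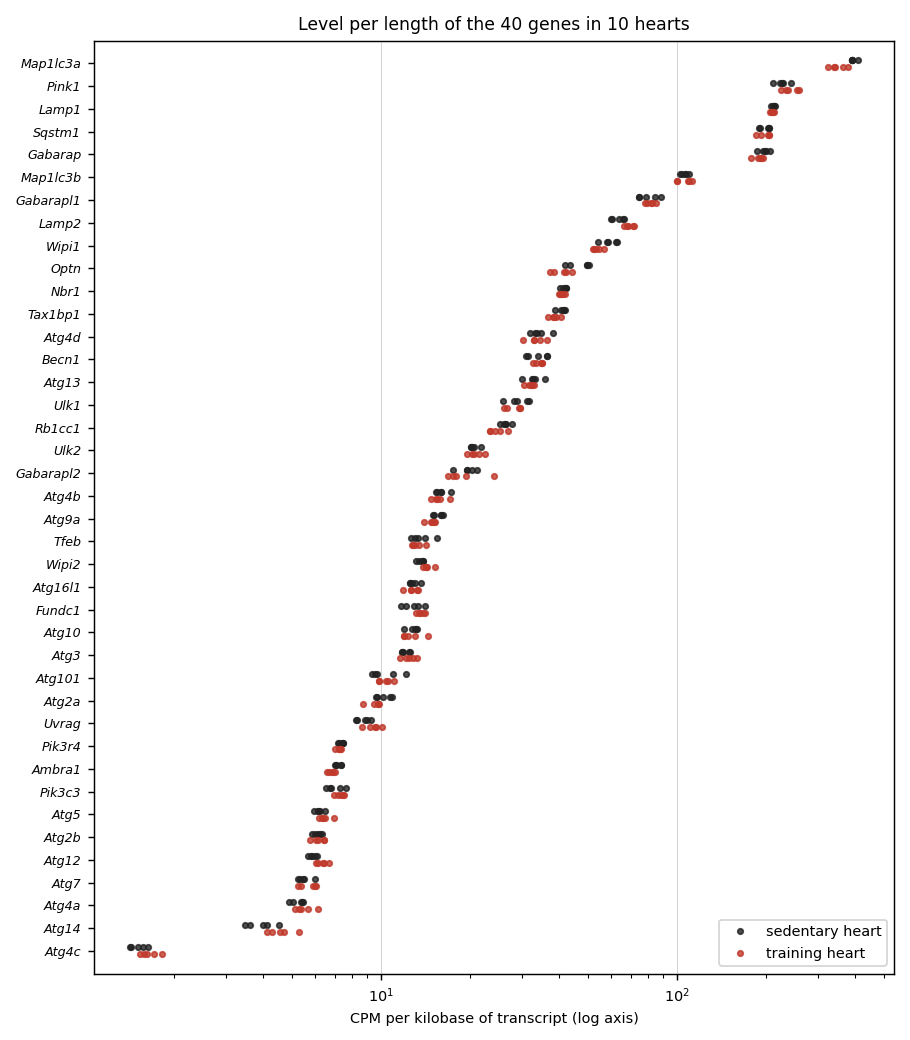
Level of each of the 40 genes in CPM per kilobase of transcript (x axis, log scale), 1 point per heart, ordered by the sedentary mean. Map1lc3a is at the top, near 394 CPM per kb in sedentary hearts and lower in training hearts, and Atg4c is at the bottom.

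Which of the 40 genes passed depended on how the libraries were scaled and which hearts were used, while the count stayed low. With library totals alone in place of TMM scaling, which shifts the median of all genes by 0.053 log2 units, 5 of the 40 passed, all higher (Atg14, Wipi2, Atg12, Pink1 and Lamp2), beside 8.85% of all genes, and Map1lc3a and Optn did not pass at -0.12 and -0.16. The split into higher and lower calls thus differed between the scalings. With the atrial score as a covariate, 0 of the 40 passed, beside 0.608% of all genes, and 0 passed without sedentary hearts 2 and 5, beside 1.79%. With the clock gene score as a covariate 4 passed (9.68% of all genes), on RSEM counts 1 (6.21%) and with the mouse number as a block 1 (7.36%). The count was 2 with DESeq2 size factors in edgeR (6.88% of all genes), with no filter on low counts (3.55%), with at least 10 counts in every library (7.82%), with both strands counted (6.77%), without genes of mitochondrial DNA (6.71%) and with a trend on gene length removed (7.78%). Over the 23 alternatives, 32 of the 40 genes were never called.

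**Figure D4:**
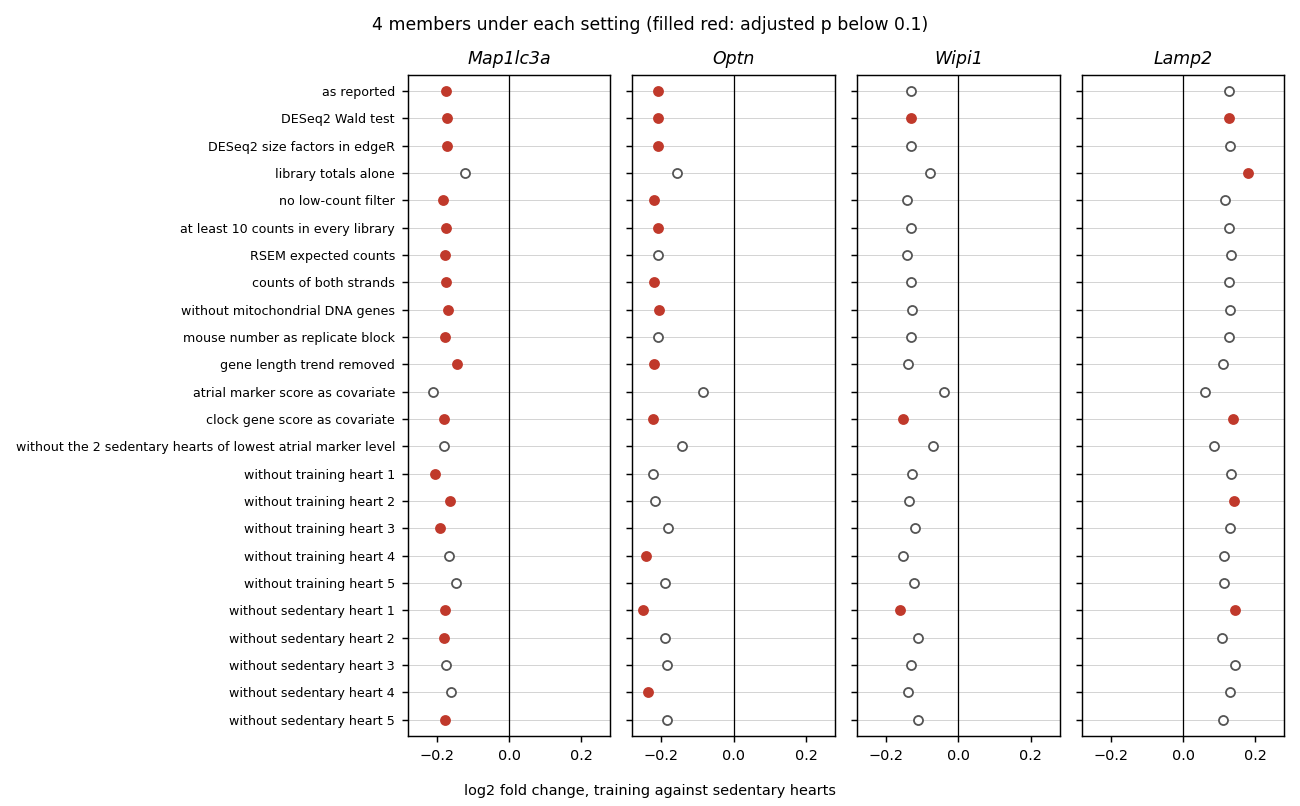
Log2 fold change of Map1lc3a, Optn, Wipi1 and Lamp2, training over sedentary hearts (x axis, log2 units), under each way of processing (y axis). Filled red points passed at an adjusted p below 0.1. With library totals alone Lamp2 passed at 0.18, while Map1lc3a and Optn did not, at -0.12 and -0.16.

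The other genes of the route were read in the same fit, and 8 of 91 passed (8.79%, beside 7.01% of all genes), 6 lower and 2 higher. Their median log2 fold change was -0.002, and 19 had an unadjusted p below 0.05. DESeq2 called 9 of the 91, the same 8 and the mitophagy receptor Bnip3, beside 11.3% of all genes. With the atrial score as a covariate 0 of the 91 passed, in a fit that called 0.608% of all genes. Without sedentary hearts 2 and 5 the count was also 0, beside 1.79% of all genes.

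The list of lysosomal enzymes, proton pump and membrane proteins held 4 of the 8, with 2 of its 27 genes lower and 2 higher. Ctsd, the aspartic protease cathepsin D, had 433, 481, 425, 466 and 435 CPM in training hearts and 532, 544, 521, 479.9 and 535 CPM in sedentary hearts. Its means were 448 ± 24.1 CPM against 522 ± 25.0 CPM (SD, n = 5 each) with a log2 fold change of -0.22 ± 0.0481 (edgeR adjusted p = 0.0281), and the call held in all 10 fits without 1 heart. These are uniquely mapped reads, and the RSEM estimate for Ctsd was 1.99 times that count. Its log2 fold change on RSEM counts is not given here. Psap codes for prosaposin, the precursor of the saposins that help enzymes degrade sphingolipids, and was at 1209.9, 1203.3, 1197.6, 1246.6 and 1205.6 CPM in training and 1274.2, 1401.8, 1367.7, 1381.4 and 1416.0 CPM in sedentary hearts. No training heart reached a sedentary one, with a log2 fold change of -0.17 ± 0.0411 (edgeR adjusted p = 0.0379), and 9 of 10 fits without 1 heart kept the call. Cd63, a tetraspanin of late endosomes, was higher at 0.21 (edgeR adjusted p = 0.0725), and Npc1, the lysosomal cholesterol exporter, at 0.19 (edgeR adjusted p = 0.0899), with calls that held in 4 and 1 of the 10 fits without 1 heart.

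Fusion of autophagosome and lysosome held 2 of its 14 genes lower: Tecpr1, a tethering factor, at -0.23 (edgeR adjusted p = 0.0511), and Rab7, the small GTPase of late endosomes, at -0.14 (edgeR adjusted p = 0.0607), calls that held in 6 and 5 of the 10 fits without 1 heart. In mitophagy 1 of 14 passed, Phb2, an inner membrane protein that can bind LC3, at -0.16 (edgeR adjusted p = 0.0521), a call that held in 4 of these 10 fits. Bnip3, which ties mitochondria to ATG8 and rises in low oxygen, gave -0.17 (edgeR adjusted p = 0.141), and its relative Bnip3l 0.06 (edgeR adjusted p = 0.529). The largest value of these 14 was Nipsnap1, a mitochondrial protein that binds autophagy receptors, at 0.35 (edgeR adjusted p = 0.354), which did not pass. Its level was very low, with means of 0.93 CPM in training and 0.73 CPM in sedentary hearts and 21 to 43 counts per heart.

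Upstream control held 1 called gene of 14. Ddit4 codes for REDD1, a stress-induced inhibitor of mTORC1, and had the largest difference of the pathway, with 26.5, 32.6, 35.1, 56.5 and 55.6 CPM in training hearts. In sedentary hearts it had 31.6, 109, 74.1, 94.1 and 75.9 CPM, spread widely, with heart 1 inside the training range. The log2 fold change was -0.90 ± 0.277 (edgeR adjusted p = 0.0932), and 2 of 10 fits without 1 heart kept the call. Mtor gave -0.12 (edgeR adjusted p = 0.168) and Prkaa1, a catalytic subunit of AMPK, 0.09 (edgeR adjusted p = 0.272). No gene passed edgeR or DESeq2 among the 8 further nucleation and phagophore genes, the 6 further receptors or the 8 genes of transcriptional control, with 1, 2 and 0 genes at an unadjusted p below 0.05.

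**Figure D5:**
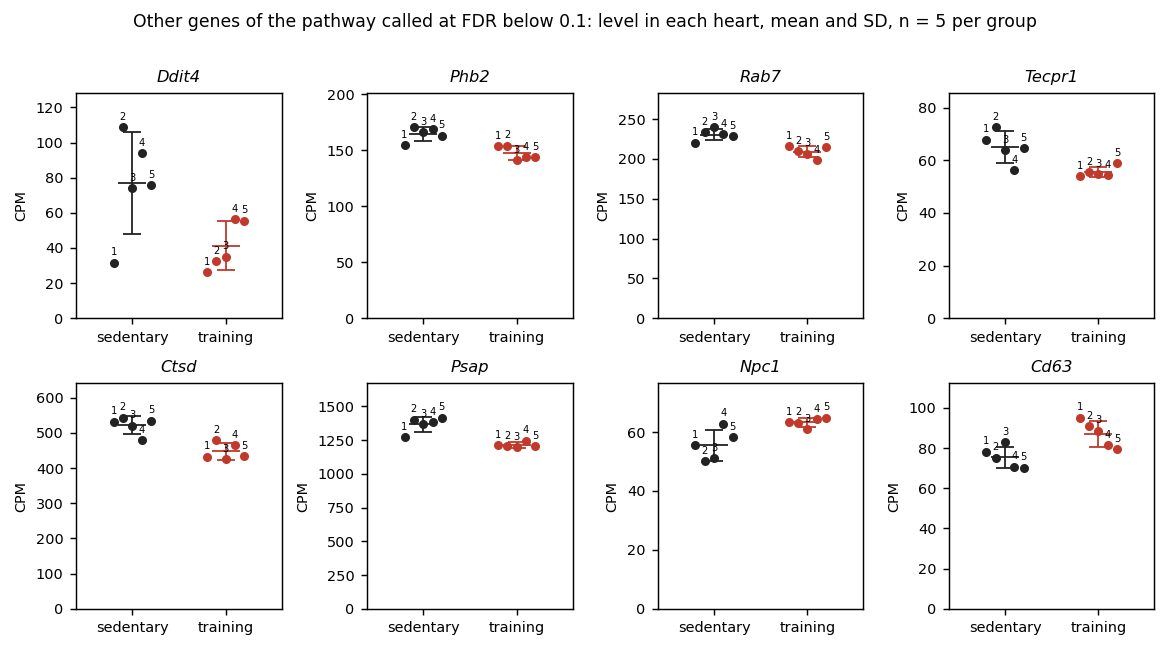
Level in CPM (y axis, from 0) of the 8 other pathway genes called at an FDR below 0.1, by group, with each heart numbered and the mean and SD drawn (n = 5 per group). Psap, Rab7 and Phb2 show no overlap between the groups, while Ddit4 in sedentary heart 1, at 31.6 CPM, lies among the training hearts. Of the 91 other genes, 5 show no overlap, beside 5.06% of all tested genes.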

How the data were processed

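RNA from whole hearts of 5 training and 5 sedentary mice was sequenced, 1 library per mouse. The authors aligned single reads with STAR 2.7.10a to GRCm39 and deposited its read counts per gene for each strand setting, and RSEM 1.3.3 tables with expected counts, TPM and transcript lengths. The deposited counts hold uniquely mapped reads only, and their lines without a gene (multimapping reads, 17.9% to 19.2% of the total, reads in no gene, 4.15% to 4.89%, and ambiguous reads, 0.940% to 0.998%) were left out. The reverse-strand column was used, which held 94.9% to 95.6% of stranded counts. The deposited TPM values were not tested.

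Counts were filtered with filterByExpr, scaled by TMM and tested with edgeR 4.0.16 (R 4.3.3, quasi-likelihood F test, no covariate), with Benjamini-Hochberg adjustment over all 15454 genes and an FDR threshold of 0.1, which is the threshold of the study. A standard error is the absolute log2 fold change divided by the square root of F. Log2 fold changes are moderated by edgeR's prior count. Levels between genes are CPM per kilobase of RSEM length. Symbols and positions came from GENCODE M39 on GRCm39, which gave symbols to 56017 of the 56748 identifiers, and promoter windows from RefSeq on GRCm38.p6. No promoter entry was found for 6 of the 40 genes (Pik3c3, Becn1, Map1lc3a, Atg12, Rb1cc1 and Atg16l1).

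Replicate libraries differed by 6.16 to 27.4 times the sampling noise (chi-square per degree of freedom), so none was a duplicate. The p-values weigh the difference between the groups against the spread between single mice. The atrial score is the mean centred log2 CPM of 6 atrial markers. DESeq2 1.42.0, other scalings, filters, countings and covariates, and fits without each heart, were alternatives. The fit without sedentary hearts 2 and 5 was chosen after seeing the data. The steps were tested on simulated counts first. By the rule for named genes, values of each heart are given for the called genes among the 40 and for a fixed list of 10 of them, the gene with the largest change in each step is named with its value, and so are the called genes of the wider pathway. Other values of single hearts, and other genes outside the 40, were chosen after their values were seen. The genes and lists were chosen with earlier results of these data known.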

Additional observations from a re-analysis of the deposited data

Results flagged for a closer look

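In 96 groups of 5 hearts (each of the 40 genes and the called genes of the wider pathway, in each group), 2 held 1 heart far from the other 4. Chance gives about 1 in 20 groups, so fewer were found than chance alone would give. Map1lc3a in sedentary heart 4 was at 385.6 CPM, while the other 4 sedentary hearts were at 367 to 369 CPM, so that the gap was 0.893 of the group's whole range, mostly because those 4 hearts lay so close together. The deviation points away from the training hearts. Psap in training heart 4 was at 1246.6 CPM, while the other 4 training hearts were at 1198 to 1209.9 CPM, with a gap of 0.749 of the range, and it was still below every sedentary heart.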

How the results depend on the processing

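Of 920 values (the 40 genes under 23 alternative fits), 889 stayed on their side of the threshold, 19 lost a call and 12 gained one. The sign changed in 63 values of 18 genes, none of them called in the report, whose log2 fold changes in the report were at most 0.0481 in size. The count of called genes among the 40, 2 in the report, was 4 with DESeq2, 5 with library totals alone, 1 with RSEM expected counts, 1 with the mouse number as a replicate block, 4 with the clock score, 0 with the atrial score, 0 without sedentary hearts 2 and 5, and 0 at an FDR below 0.05. The 91 other genes gave 0, 0 and 2 calls in the last 3 of these in place of 8, and the count of all genes called was 94, 282 and 505 in place of 1084. Leaving out 1 heart gave 0 (without training heart 5 or sedentary heart 3) to 4 (without sedentary heart 1) calls among the 40, 2 (without training heart 3 or sedentary heart 3) to 8 among the 91, and 512 (without training heart 4 or sedentary heart 3) to 1490 (without sedentary heart 1) over all genes. The median log2 fold change of the 40 genes was 0.048 with library totals alone and 0.024 with the atrial score, in place of -0.0048. The median level was 16.6 CPM per kb with effective lengths in place of 15.9. Mouse numbers did not pair the hearts: deviations of hearts with the same number correlated at -0.097 to 0.159, 2 of 5 pairs above 0.1, and 3 of 10 hearts correlated best with their own number. Under that block Optn lost its call (adjusted p = 0.131) and no other of the 40 changed side. Other causes of these changes were not tested. At this depth each of the 40 genes had at least 144 counts in every heart.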
